A study of Mus musculus with 2 samples.

Results

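The anorectal transition zone is the junction where the stratified epithelium of the anal canal meets the glandular epithelium of the rectum. Single cells of this junction were sequenced in 2 libraries, 1 from normal mice and 1 from mice wounded 1 week earlier, and epithelial cells of each library were kept in the authors' tables. The cells described here are the cells with fibroblast transcripts that were not in those tables. The rule took barcodes that passed the study's filters (more than 200 but fewer than 5000 genes, and less than 25% of UMIs from mitochondrial genes) and held at least 5 UMIs summed over Col1a1, Col1a2, Col3a1, Dcn and Pdgfra, and the cells are called collagen-positive cells below. A UMI (unique molecular identifier) counts 1 captured mRNA molecule. The rule found 65 of 2564 barcodes in the normal library and 288 of 17216 barcodes in the wounded library. Of the barcodes that passed the filters on genes and mitochondrial UMIs without being in the table, collagen-positive cells were 65 of 610 (10.7%, 95% interval 8.32 to 13.4) in the normal and 288 of 1078 (26.7%, 24.1 to 29.5) in the wounded library. Of all barcodes that passed the filters, those in the tables included, they were 4.20% (3.26 to 5.32) and 5.51% (4.91 to 6.17), and these intervals overlapped. The tables held 939 normal and 4147 wounded epithelial cells, which are the cells of comparison.

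All mice were of the strain C57/BL6J and carried K17CreERT2 and R26RGFP, a tamoxifen-inducible Cre driven by the Krt17 promoter and a ZsGreen1 reporter that this Cre switches on. Tamoxifen for 2 days was stated for the sorted mice. The normal library came from unwounded mice, for which only a general age of 6 to 8 weeks was stated, and the wounded library from mice of 2 to 4 months whose anorectal region had been treated with hot EDTA and a brush. At least 5 mice of both sexes were pooled for a preparation, and each condition was 1 library. Cells were sorted as Epcam-positive and negative for CD45, CD11b, CD31 and PDGFRa, and both libraries carried the label of anorectal epithelial cells. Since each condition was 1 library, the wound cannot be told apart from the pool of mice, the library or the version of the counting software, no test was made and no p-value is given. Brackets hold exact 95% intervals, which cover counting error only. Levels are UMIs of a gene summed over cells per 1000000 summed UMIs (CPM).

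The connective tissue under an epithelium is made by fibroblasts, which secrete fibrillar collagens and proteoglycans, and it also holds smooth muscle cells and pericytes, the contractile cells that wrap small vessels. In the intestine, fibroblasts next to the epithelium, known as subepithelial telocytes, carry the transcription factor Foxl1 and the receptor Pdgfra and secrete Wnt5a and BMPs, which act on the neighbouring epithelial cells. Fibroblasts further from the epithelium and smooth muscle are known sources of R-spondin and of the BMP antagonist gremlin, which favour stem cells, and wounds are known to bring forth contractile, matrix-secreting fibroblasts called myofibroblasts.

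The rule markers themselves describe the choice of the cells and are no finding. The median cell held 58 UMIs of the 5 markers in the normal library, with a range of 5 to 377, and 35 of 65 cells held at least 50. In the wounded library the median was 114.5 with a range of 5 to 776, and 206 of 288 cells held at least 50. Col1a1 (chr11:94936224-94953042, GRCm38, + strand), a chain of type I collagen, stood at 1426 CPM in normal and 3610 CPM in wounded collagen-positive cells, against 0.298 and 6.36 CPM in the deposited epithelial cells. Dcn (chr10:97479609-97518143, + strand), the proteoglycan decorin, stood at 5912 and 4252 CPM against 18.6 and 22.4 CPM. Pdgfra (chr5:75152292-75198215, + strand), the receptor against which the gate selected, stood at 301 CPM (253 to 357) in the normal and 300.3 CPM (278 to 324) in the wounded cells. It was detected in 34 of 65 and 164 of 288 collagen-positive cells. No Pdgfra UMI was found in 939 normal epithelial cells, and the 4147 wounded ones held 14. In cells thinned to 2000 UMIs, Pdgfra was detected in 39.7% of collagen-positive cells of either library (27.0 to 53.4 and 33.8 to 45.8).

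Fibroblast genes that the rule did not use were checked next, in the same cells. Of the 20 other fibroblast genes on the list, 20 were detected in each library, and together they made up 11020 CPM of the normal and 15832 CPM of the wounded collagen-positive cells. The same list came to 113 and 151 CPM in the epithelial cells. Its most abundant gene was Sparc, a collagen-binding glycoprotein, at 3481 and 5786 CPM. Col6a1, a chain of the microfibrillar type VI collagen, stood at 1181 and 1463 CPM and Lum, the proteoglycan lumican, at 565 and 774 CPM. Vim, the intermediate filament of mesenchymal cells, was detected in 53 of 65 normal and 273 of 288 wounded collagen-positive cells and in 3.19% of normal epithelial cells. At 2000 UMIs per cell these shares were 77.6% and 89.0% against 0.559% in normal and 1.73% in wounded epithelial cells. The collagen-positive cells were the shallower set, with medians of 6453 and 7315 UMIs per cell against 9724 and 10077 in epithelial cells.

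The name of fibroblasts covered only a part of these cells. Genes of smooth muscle were abundant in both libraries: the 10 contractile genes of the list summed to 21187.5 CPM in normal and 16417 CPM in wounded collagen-positive cells, with Acta2, the smooth muscle actin, as the most abundant at 6289 and 5343 CPM. The 8 pericyte genes summed to 1145 and 1304 CPM. Epithelial transcripts were widespread at low counts. Krt14, a keratin of basal cells, had UMIs in 47.7% of normal and 40.6% of wounded collagen-positive cells, and at 2000 UMIs per cell in 31.0% and 21.3%, against 92.8% and 89.8% of epithelial cells. The part of free RNA in these counts was not tested. Only 8 normal and 29 wounded collagen-positive cells held at least 10 UMIs of the 12 stratified epithelium genes. These 12 genes came to 2120 and 1297 CPM in all collagen-positive cells, against 21290 and 11751 CPM in epithelial cells. The 10 rectum genes came to 107 and 348.5 CPM against 1627 and 1716 CPM.

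Markers of other cell types were scarce, apart from Des. The 8 skeletal muscle genes summed to 1102 CPM in normal and 431 CPM in wounded cells, of which Des, which smooth muscle shares, made up 1091 and 410 CPM, and Myf5 and Pax7 were at 0 in both. The 10 endothelial genes summed to 31.2 CPM in the normal and 23.2 CPM in the wounded cells, with Plvap as the most abundant, and Kdr and Mmrn1 were at 0 UMIs in both. The 12 immune genes summed to 8.93 and 33.8 CPM, with Ptprc, the gene of CD45, at 0 and 3 UMIs and Itgam, the gene of CD11b, at 0 in both. Of 77 immune UMIs in the wounded collagen-positive cells, 55 were in the cells with keratin transcripts. The 8 Schwann cell genes summed to 17.9 and 20.2 CPM with Sox10 at 0, and the mesothelial, adipocyte and melanocyte lists were carried by Krt19, Fabp4 and Mitf, with Adipoq at 0. The gate's own gene, Epcam, stood at 62.5 CPM (41.5 to 90.3) and 39.9 CPM (32.1 to 49.0), against 505 and 488 CPM in the epithelial cells, and Pecam1, the gene of CD31, at 4.46 and 1.75 CPM.

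The threshold of 5 marker UMIs separated cells that were alike in part. In the normal library 9 cells held 3 or 4 marker UMIs and 7 held 5 or 6, and Acta2 stood at 6562 CPM outside and 6418 CPM inside. Krt14, a keratin of the basal stratified layer, stood at 829 CPM outside and 2075 CPM inside. In the wounded library 15 cells were just outside and 13 just inside, with Acta2 at 9816 and 6889 CPM. Krt14 had the other direction there, at 3775 and 956 CPM. Col6a1 stood at 118 and 34.9 CPM in the normal and 61.0 and 214 CPM in the wounded library. Cells with Acta2 UMIs therefore lay on both sides of the threshold. The cells just outside were not clustered or named, so their cell type is not given.

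**Figure D1:**
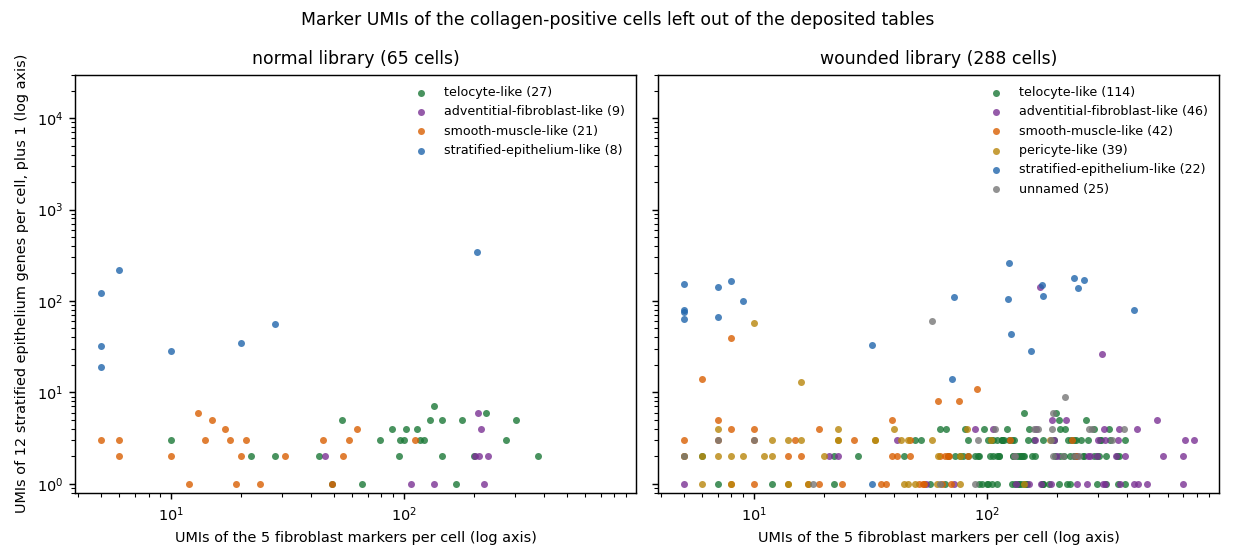
Each point is 1 collagen-positive cell, with its UMIs of the 5 rule markers on the horizontal axis and its UMIs of 12 stratified epithelium genes plus 1 on the vertical axis, both on log axes, for the 65 normal and 288 wounded cells. The telocyte-like and adventitial-fibroblast-like cells lie mostly to the right with few keratin UMIs, smooth-muscle-like and pericyte-like cells further left (medians of 19 marker UMIs in normal smooth-muscle-like and 23 in wounded pericyte-like cells), and 8 of 8 normal and 21 of 22 wounded stratified-epithelium-like cells hold at least 10 keratin-list UMIs, as do 8 wounded cells of other groups.

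Against the epithelial cells of their own library, the collagen-positive cells differed at many genes. Of 3583 genes compared in the normal library 33.4% were at least 2-fold higher in collagen-positive cells, and of 9199 genes in the wounded library 29.3%, with median log2 ratios over all compared genes of 0.54 and 0.43. At least 2-fold lower were 100 and 538 genes. A gene was compared when the collagen-positive cells alone held at least 20 UMIs of it, so genes that were low in these cells mostly did not enter, and the balance of higher and lower genes was partly set by this minimum. These ratios include the genes of the rule and those that go along with them, so they are a description. The 15 largest in the normal library were Tmem119, Col6a1, Lum, Ogn, Col1a1, Cnn1, Sept4, Foxf1, Col3a1, Col1a2, Serping1, Actg2, Des, Srpx2 and Ccl11, at log2 ratios of 11.24 to 12.92. The 15 largest in the wounded library were Fam162b, Mrvi1, Col5a3, Ccl8, Aard, Mmp10, Rem1, Sod3, Tcf21, Foxf1, Tmem119, Adam19, Abcc9, Ogn and Ms4a4d, at 10.07 to 12.08. Besides matrix genes, the lists held the contractile genes Cnn1, Actg2 and Des, the chemokines Ccl8 and Ccl11, the matrix metalloproteinase Mmp10 and the transcription factors Foxf1 and Tcf21.

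By role, the matrix lists were described by their summed levels over all listed genes, whether or not a gene reached the minimum. The 13 basement membrane genes summed to 1553 CPM in normal and 3555 CPM in wounded collagen-positive cells, against 71.2 and 183 CPM in epithelial cells. The 8 small leucine-rich proteoglycans, which space collagen fibrils, summed to 3276 and 3394 CPM against 45.5 and 56.6 CPM, and the 12 elastic fibre genes to 2368 and 2680.3 CPM against 115 and 99.8 CPM. The 12 genes that crosslink and process collagen summed to 2419 and 2336 CPM against 107 and 81.7 CPM. The 10 heat shock genes summed to 3716 and 4045 CPM and were the more abundant in epithelial cells, at 4575 and 5660.3 CPM.

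Some transcription factors of gut mesenchyme were found in the cells. Foxf1 (chr8:121084386-121088144, GRCm38, + strand), a factor of gut mesenchyme, was detected in 46 of 65 normal and 145 of 288 wounded collagen-positive cells, and in 1 of 939 normal epithelial cells. Nkx2-3, a homeobox factor of the gut mesenchyme, was detected in 37 of 65 and 198 of 288 cells, at 223 CPM (182 to 271) and 277 CPM (255 to 299), and Tcf21 in 42 and 161 cells. At 2000 UMIs per cell Foxf1 was detected in 48.3% of normal and 23.2% of wounded collagen-positive cells, Nkx2-3 in 29.3% and 39.7% and Tcf21 in 46.6% and 26.8%. Of the 10 gut mesenchyme factors of the list, 4 were at 0 UMIs in the normal cells (Hand1, Hand2, Barx1 and Gata6) and 1, Hand1, in the wounded cells. Of the 12 skin mesenchyme factors, 4 and 2 were at 0. The skin list summed to 252 and 296 CPM in collagen-positive and 90.8 and 116 CPM in epithelial cells, and the gut list to 1451 and 764 CPM and 20.4 and 25.7 CPM. En1, a skin factor, was at 0 UMIs in both libraries, Tbx15 at 0 and 4 UMIs, and Twist1 and Prrx1 stood at 15.6 and 35.7 CPM in the normal and 45.6 and 58.3 CPM in the wounded cells. Posterior Hox genes, which mark position along the body axis, were present at low levels: Hoxa10 stood at 64.7 and 59.2 CPM and Hoxd13 at 33.5 and 23.7 CPM. Hoxb13, which stood at 62.3 and 41.0 CPM in the epithelial cells, had 0 UMIs in 65 normal (up to 8.23 CPM) and 12 UMIs in 288 wounded collagen-positive cells.

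The collagen-positive cells of each library were then clustered on their own. The groups were named from marker lists, and the genes that lead them formed the clusters, so these genes are described and not tested. The normal cells fell into 4 groups. The largest, 27 cells (41.5%, 29.4 to 54.4), was telocyte-like and was led by Tmem158, Emid1, Cxcl13 and Tmem119, with Pdgfra and Bmp5 among its leading genes. Bmp5 was the 1 gene of the telocyte list among its 10 leading genes. A smooth-muscle-like group of 21 cells (32.3%, 21.2 to 45.1) was led by Des, Actg2, Cnn1 and the pericyte gene Rgs5. An adventitial-fibroblast-like group of 9 cells (13.8%, 6.53 to 24.7) was led by Ccl8, Mgp, Cd34 and Gsn. Cd34 was the 1 gene of the adventitial list among the 10 leading genes of that group. The last 8 cells (12.3%, 5.47 to 22.8) were stratified-epithelium-like, with Lgals7 and Krt15 among the leading genes.

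The wounded cells fell into 6 groups. The telocyte-like group held 114 cells (39.6%, 33.9 to 45.5) and was led by Cxcl13, Mmp10 and Tmem119. The adventitial-fibroblast-like group held 46 cells (16.0%, 11.9 to 20.7), led by Apod, Crabp1, Pi16 and Cd55, and the smooth-muscle-like group 42 cells (14.6%, 10.7 to 19.2). Pericyte-like cells, led by Rgs5, Ebf1 and Ndufa4l2, formed a group of their own with 39 cells (13.5%, 9.81 to 18.0). The stratified-epithelium-like group held 22 cells (7.64%, 4.85 to 11.3), of which 21 had at least 10 keratin-list UMIs, and kept a median of 71.5 marker UMIs. The last 25 cells (8.68%, 5.70 to 12.5) were left unnamed. Genes of cornified epithelium and of neutrophils or platelets, Psca, Sprr2d, Cnfn, Ltf and Ppbp, led this group. A single cell held 525 of 527 Psca UMIs, 231 of 232 Sprr2d UMIs, all 102 Cnfn UMIs, all 160 Ppbp UMIs and 125 of 127 Ltf UMIs of the wounded collagen-positive cells, and it was the top cell of all 10 leading genes, so these genes describe that cell. The group's median mitochondrial share was 16.5%, against 5.12% in telocyte-like cells, and it carried Pdgfra at 364 CPM and Bmp5 at 424 CPM like the telocyte-like cells. The names depended on the resolution of the clustering. At resolution 1.0 the telocyte-like name was kept by 17 normal and 49 wounded cells, and 10 normal and 125 wounded cells were left unnamed. Clustered without the 5 marker genes, or without the immediate-early and heat shock genes, the normal telocyte-like and adventitial-fibroblast-like cells formed 1 group of 36 cells that took the adventitial-fibroblast-like name, so the name of the normal telocyte-like group did not hold there. Wounded over normal values of telocyte-like cells rest on this name. Those of the pooled fibroblast-like cells do not rest on the split between the telocyte-like and adventitial-fibroblast-like names. They still rest on cells having either name, and the unnamed cells are left out. With 1 library per condition, a difference in the share of a group between libraries cannot be told apart from a difference in sorting or dissociation.

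The telocyte-like cells of both libraries carried the list they were named from. Pdgfra stood at 754 CPM (628 to 898) in normal and 561 CPM (512 to 614) in wounded telocyte-like cells. Adventitial-fibroblast-like cells stood at 177 and 217 CPM, and no Pdgfra UMI was found in smooth-muscle-like or pericyte-like cells, which allowed up to 27.9 CPM in the 21 normal and 10.99 CPM in the 42 wounded smooth-muscle-like cells. Foxl1, the transcription factor of telocytes, stood at 169 CPM (112 to 244) and 116 CPM (94.6 to 141). F3, the coagulation factor receptor that is known from colonic telocytes, stood at 983 CPM (838 to 1146) and 319 CPM (282 to 359), and Sox6 at 151 and 242 CPM. Of 9 telocyte genes, 9 were detected in the telocyte-like cells of each library, while 4 and 0 of the same genes were at 0 in adventitial-fibroblast-like cells.

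The adventitial-fibroblast-like cells carried Cd34, a marker of progenitor-like fibroblasts around vessels, at 689.7 CPM (480.4 to 959) and 489 CPM (419.5 to 567), against 6.03 and 13.9 CPM in telocyte-like cells. Elastin (Eln) stood at 1596 and 650.3 CPM against 6.03 and 4.65 CPM in telocyte-like cells, and the microfibril gene Mfap5 at 1044 and 967 CPM against 0 and 22.1 CPM. Clec3b, a plasminogen-binding protein of fibroblasts, stood at 5163 CPM in the normal and 1045 CPM in the wounded group. Pi16, a marker of adventitial fibroblasts, and Crabp1, a retinoic acid-binding protein of dermal papilla and other fibroblasts, were found among the wounded collagen-positive cells in 11 and 5 cells, at 489 and 539 CPM of the wounded adventitial-fibroblast-like cells. In the 9 normal cells of that group 0 UMIs were found for either gene, which allowed up to 72.7 CPM. Dpp4, another gene of the adventitial list, had 0 UMIs in the telocyte-like and adventitial-fibroblast-like cells of both libraries. Eln, Mfap5 and Crabp1 are not on that list.

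The contractile groups differed from the fibroblast-like ones by the genes they were named from. Acta2 (chr19:34241090-34255590, GRCm38, − strand) stood at 18104 CPM (17386 to 18843) in normal and 17361 CPM (16918 to 17812) in wounded smooth-muscle-like cells, and at 3673 CPM (3428 to 3931) in wounded pericyte-like cells. Des, the muscle intermediate filament, stood at 3693 and 2427 CPM in smooth-muscle-like cells and at 0 and 3.49 CPM in telocyte-like cells. Rgs5, a regulator of G protein signalling that marks pericytes, stood at 6135 CPM in wounded pericyte-like cells and 2296 CPM in normal smooth-muscle-like cells. At resolution 1.0 the normal library gave 9 pericyte-like and 12 smooth-muscle-like cells, so the smooth-muscle-like groups of the 2 libraries are not like sets of cells and their values stand side by side with no comparison. The 136 Rgs5 UMIs of wounded telocyte-like cells came from 2 cells, 1 of which held 135.

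**Figure D2:**
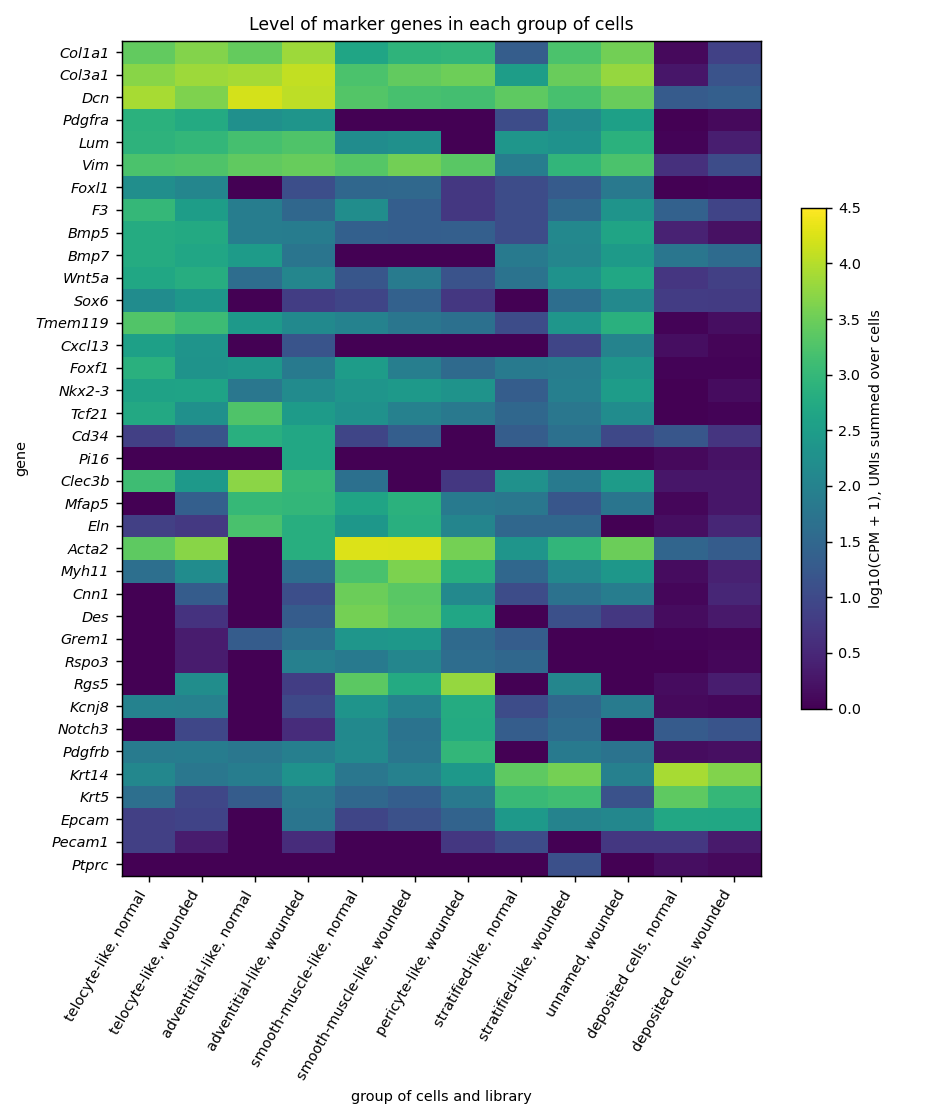
Colours give log10 of CPM plus 1 for 37 genes (rows) in each group of collagen-positive cells and in the deposited epithelial cells (columns, by library), from UMIs summed over the cells of the group. Pdgfra and the telocyte genes are bright in telocyte-like cells, Cd34, Eln and Mfap5 in adventitial-fibroblast-like cells, Acta2, Cnn1 and Des in smooth-muscle-like cells and Rgs5 in pericyte-like cells, while Krt14 and Epcam are bright in the deposited and the stratified-epithelium-like cells.

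Secreted signals that are known to act on epithelium were split between the groups. Wnt5a (chr14:28504750-28527448, GRCm38, + strand), a Wnt ligand of the non-canonical pathway, stood at 483 CPM (383 to 601) in normal and 639 CPM (587 to 695) in wounded telocyte-like cells, and at 15.1 CPM (1.83 to 54.6) and 74.5 CPM (48.2 to 109.9) in smooth-muscle-like cells. Bmp5 and Bmp7, ligands that favour differentiation of the epithelium, stood at 579 CPM each in normal and at 542 and 467 CPM in wounded telocyte-like cells. Bmp7 had 0 UMIs in the smooth-muscle-like cells of both libraries and in the pericyte-like cells of the wounded library. Wnt5a, Bmp5 and Bmp7 belong to the list from which the telocyte-like group was named, so their place there was partly fixed. Bmp4, which does not, stood at 1617 CPM (1429 to 1822) in normal telocyte-like, 1320 CPM (1023 to 1677) in adventitial-fibroblast-like and 189 CPM (122 to 279) in smooth-muscle-like cells. Wnt4 was shared by both fibroblast-like groups, at 217 CPM in each of the normal groups and 232 and 292 CPM in the wounded ones.

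Gremlin and R-spondin lay in the other groups. Grem1 (chr2:113746164-113758646, GRCm38, − strand), the BMP antagonist gremlin, stood at 234 CPM (159 to 332) in normal and 250.2 CPM (199.6 to 309.7) in wounded smooth-muscle-like cells, against 0 UMIs (up to 22.3 CPM) and 1 UMI (0.0294 to 6.48 CPM) in the telocyte-like cells. The 31 Grem1 UMIs of the normal smooth-muscle-like cells and the other 3 of that library lay in 4 cells in all. Rspo3, an R-spondin that amplifies Wnt signalling, stood at 68.0 CPM (31.1 to 129) and 116 CPM (82.6 to 159) in smooth-muscle-like cells and 88.9 CPM (60.8 to 126) in wounded adventitial-fibroblast-like cells, with 0 and 1 UMI in telocyte-like cells. The 9 normal adventitial-fibroblast-like cells held 0 Rspo3 UMIs, which allowed up to 72.7 CPM, and the 12 Rspo3 UMIs of the normal collagen-positive cells, 9 of them in smooth-muscle-like cells, lay in 3 cells in all. Hhip, an inhibitor of hedgehog ligands, stood at 838 and 599 CPM in smooth-muscle-like cells against 109 and 36.0 CPM in telocyte-like cells, and Sfrp1, a secreted Wnt antagonist, at 355 and 661 CPM in adventitial-fibroblast-like cells. The chemokine Cxcl12 was highest in telocyte-like cells, at 2630 and 1248 CPM, and stood at 310 and 56.6 CPM in smooth-muscle-like cells.

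**Figure D3:**
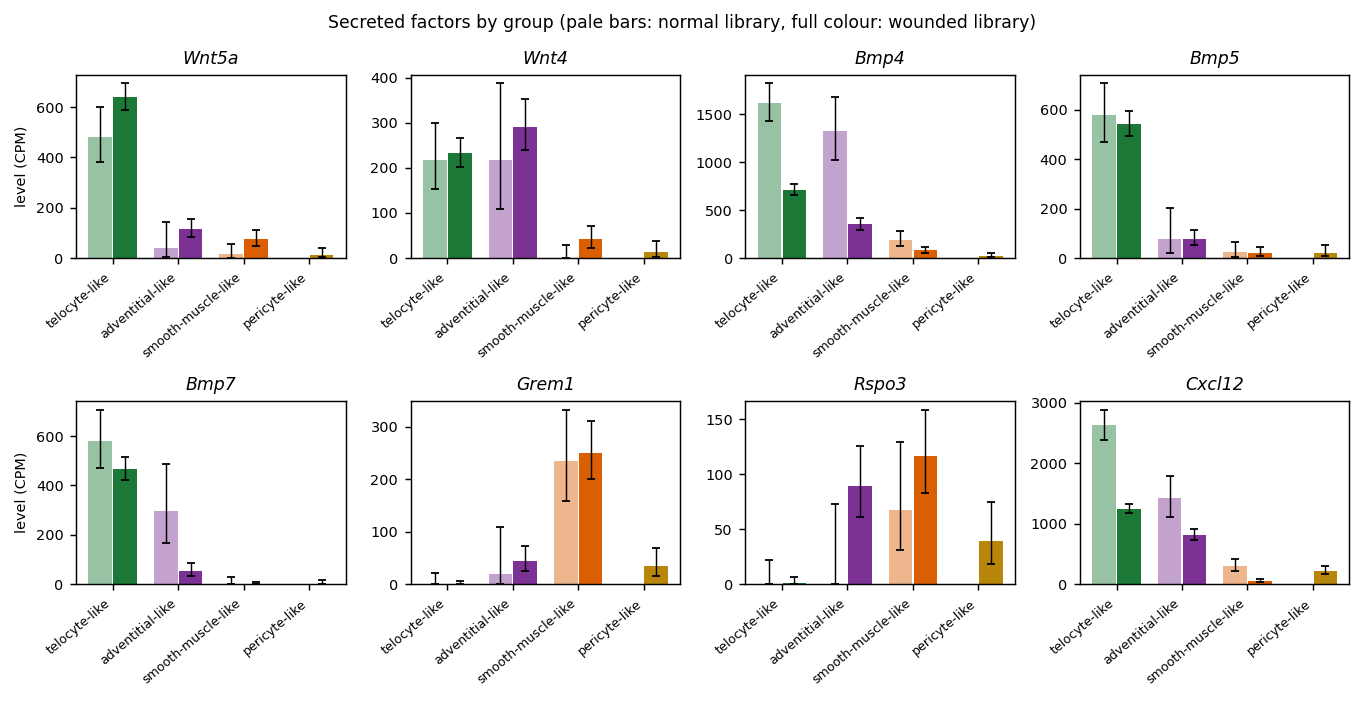
Bars give the level in CPM of 8 secreted factors in 4 groups of collagen-positive cells, pale for the normal and full colour for the wounded library, with exact 95% Poisson intervals as error bars. No normal bar is drawn for pericyte-like cells, which formed no group of their own there. Wnt5a, Bmp5 and Bmp7 are highest in telocyte-like cells (483 to 639 CPM for Wnt5a), and Grem1 in smooth-muscle-like cells (234 and 250.2 CPM).

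Gut mesenchyme factors were found across the groups. Nkx2-3 stood at 398, 59.1 and 219 CPM in normal telocyte-like, adventitial-fibroblast-like and smooth-muscle-like cells, and at 405, 147 and 265 CPM in the wounded groups, with 207 CPM in pericyte-like cells. Tcf21 was highest in adventitial-fibroblast-like cells, at 1793 CPM (1444 to 2202) and 289 CPM (236 to 350). Hoxa10 was detected in every fibroblast-like and contractile group, at 29.8 to 118 CPM.

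The wounded and normal collagen-positive cells were then compared, as 2 sums of cells. Of 9786 genes with at least 20 UMIs over both, 14.0% were at least 2-fold higher and 9.34% at least 2-fold lower in the wounded library, and the median log2 ratio was -0.03. Because the groups take different shares of the 2 sums, the comparison was repeated in the telocyte-like cells alone (27 and 114 cells), where 14.7% of 6436 genes were higher and 9.42% lower. In telocyte-like and adventitial-fibroblast-like cells pooled (36 and 160 cells), 1067 of 7596 genes were higher and 718 lower. The same genes in the epithelial cells were higher at 10.1% and lower at 7.52% of 9758 genes. The median mitochondrial share was 2.94% in normal and 5.12% in wounded telocyte-like cells. Over all collagen-positive cells it was 3.38% and 5.84%, and in epithelial cells 4.77% and 8.50%. The part of RNA quality in the ratios below was not tested. All log2 ratios below are wounded over normal.

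The genes with the largest ratios were largely genes that differed by as much in the epithelial cells. Among the 12 largest, Nme2 stood at 6.85 in collagen-positive and 6.23 in epithelial cells, Rnasek at 6.57 and 6.74, and Timm23 at 4.59 and 4.52. Lars2 (5.71 and 4.39), Atp6v0c (at least 5.60, and 10.53), Gng10 (at least 4.41, and 4.37), Ube2v1 (4.37 and 4.75) and Fam89b (4.07 and 4.72) were also higher in both. The 2 libraries were counted with different feature lists and software versions, which cannot be told apart from the wound here. Psca (5.69) and Cnfn (4.32) rested on the wounded cell of the unnamed group that held nearly all of their UMIs. The remaining 2, the chemokine Cxcl10 (5.08, 2.58 to 10.39) and the chondroitin synthase Chsy3 (at least 4.11), stood at 1.42 and 0.01 in epithelial cells. Chsy3 had 0 UMIs in 65 normal and 264 UMIs in 115 of 288 wounded collagen-positive cells.

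Among the 12 lowest, Ptp4a1 (-5.64 and -4.38 in epithelial cells), Bloc1s1 (-3.17 and -2.80), Gstp1 (208 against 25.9 CPM, and 143 against 17.9 CPM in epithelial cells), Polr2l (-2.61 and -2.49), Eif3j2 (-2.60 and -2.14) and the metallothionein Mt2 (-2.73 and -1.54) were lower in both sets of cells. Inmt, a methyltransferase, stood at -5.40, with its 58 normal UMIs in 3 cells. Cstdc5 stood at -3.38, with 46 of 47 normal UMIs in 1 cell. The eosinophil chemokine Ccl11 stood at -3.93 (-4.33 to -3.53), from 215 UMIs in 14 normal cells and 72 UMIs in 26 wounded cells, and its 128 UMIs in normal telocyte-like cells came from 2 cells. Gata3 (-3.10), a factor of epithelial and immune lineages, and the small heat shock gene Hspb6 (-2.63) were also among the 12. In normal and wounded telocyte-like cells Gata3 had 0 and 0 UMIs and Hspb6 had 1 and 3, so these ratios rested on other groups.

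Of the 5 rule markers, Col1a1 alone was at least 2-fold higher over all wounded collagen-positive cells, beside 14.0% of all genes. In telocyte-like cells 0 of 5 passed 2-fold, beside 14.7% of all genes higher and 9.42% lower. Col1a1 stood at 2669 CPM in normal and 5329 CPM in wounded fibroblast-like cells (telocyte-like and adventitial-fibroblast-like pooled), a log2 ratio of 1.00 (0.87 to 1.12), and the ratio was 1.34 (1.22 to 1.46) over all collagen-positive cells and 0.81 (0.67 to 0.95) in telocyte-like cells. Col3a1 stood at 0.48 (0.38 to 0.59) in telocyte-like cells and Col1a2 at 0.26 (0.15 to 0.37). Dcn had the other sign, at -0.48 (-0.54 to -0.41) over all collagen-positive cells and -0.91 in telocyte-like cells. The rule selected cells on these genes in both libraries, so their ratios are a description. In the wounded epithelial cells Col1a1 was also more abundant, at 6.36 against 0.298 CPM, a ratio of 4.42 (2.86 to 6.70) that rested on 3 UMIs in the normal library. Of the 276 Col1a1 UMIs in the wounded epithelial cells, 172 lay in 62 cells named Rectum that held at least 5 marker UMIs. With this epithelial ratio subtracted, the ratio of the collagen-positive cells was -3.08, with the same limits.

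Part of the basement membrane genes, which the rule did not use, were at least 2-fold higher in the wounded library. A difference from genes at large was not tested. Of 13 compared over all collagen-positive cells 10 were at least 2-fold higher and 0 lower, with a median log2 ratio of 1.09, beside 14.0% of all genes and a median of -0.03. In telocyte-like cells 5 of 12 were higher, beside 14.7%, with a median of 0.80. In the pooled fibroblast-like cells 5 of 13 were higher, with a median of 0.61, to be read beside the counts over all genes given above for the pooled cells. Col4a1, a chain of the type IV collagen network, stood at 234 CPM (192 to 284) in normal and 864 CPM (826 to 903) in wounded collagen-positive cells, and at a ratio of 1.59 (1.15 to 2.06) in telocyte-like cells. Lama4, a laminin chain of vessels and mesenchyme, stood at 1.33 (0.80 to 1.92) in telocyte-like cells. The same list was higher at 7 of 13 genes in the epithelial cells, beside 10.1% of all genes, with a median of 1.14. Col4a1 stood at 3.63 and Lama4 at 3.07 there. The wounded epithelial cells included 103 with at least 5 UMIs of the rule markers, and the normal ones 7. The part of these cells in the epithelial ratios of matrix and contractile genes was not tested. Without the cells that held at least 10 stratified epithelium UMIs, 4 of 13 basement membrane genes were 2-fold higher. The share of all genes that were higher in that set of cells is not given, so this count cannot be set against genes at large.

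Genes of the provisional matrix of wounds were higher in part. Fn1, fibronectin, stood at 647 CPM (575 to 726) in normal and 1439 CPM (1390 to 1489) in wounded collagen-positive cells, and at 0.97 (0.75 to 1.20) in telocyte-like cells. Vcan, the large proteoglycan versican, stood at 1.74 (1.06 to 2.52) in telocyte-like cells, with UMIs in 13 of 27 normal and 81 of 114 wounded cells. Postn and Tnc, 2 other matricellular genes, stood at -0.59 (-0.82 to -0.35) and -0.39 (-0.91 to 0.18). Over the list, 3 of 10 compared genes were 2-fold higher in telocyte-like cells and 0 lower, beside 14.7% of all genes higher, with a median of 0.64. In the epithelial cells 4 of 11 were higher and 2 lower, beside 10.1% and 7.52% of all genes, with a median of 0.69.

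Some contractile genes of the telocyte-like cells were higher in the wounded library. Acta2 stood at 2407 CPM (2176 to 2655) in normal and 5035 CPM (4886 to 5187) in wounded telocyte-like cells, a log2 ratio of 1.06 (0.92 to 1.22). It was detected in 19 of 25 normal (76.0%, 54.9 to 90.6) and 98 of 108 wounded telocyte-like cells (90.7%, 83.6 to 95.5) at 2000 UMIs, so the shares overlapped within counting error. Tagln, the actin-binding transgelin, stood at 410 CPM (319 to 520.0) in normal and 2688 CPM (2579 to 2799) in wounded telocyte-like cells, with UMIs in 14 of 27 and 97 of 114 cells, a ratio of 2.71 (2.36 to 3.08). Of 7 contractile genes compared in these cells, 4 were at least 2-fold higher and 0 lower, with a median of 1.06, beside 14.7% of all genes higher. In the epithelial cells 5 of 10 were higher and 0 lower, beside 10.1% and 7.52% of all genes, with a median of 0.67. Over all collagen-positive cells 0 of 10 were higher and 3 lower, beside 14.0% and 9.34% of all genes. The median there was -0.35, and Acta2 stood at -0.24. The smooth-muscle-like cells, which held the most Acta2, were 32.3% of the normal cells with cells that carried Rgs5 among them, and in the wounded library smooth-muscle-like and pericyte-like cells were 14.6% and 13.5%. Des, the muscle filament, had 0 UMIs in normal and 3 UMIs in wounded telocyte-like cells.

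Matrix-degrading enzymes differed from each other in the telocyte-like cells. Mmp10, stromelysin 2, had 4 UMIs in 2 of 27 normal and 122 UMIs in 31 of 114 wounded telocyte-like cells, a log2 ratio of 2.56 (1.16 to 4.45). Mmp10 was among the leading genes of the wounded telocyte-like group and not of the normal one, so this ratio was partly set by the grouping. In the pooled fibroblast-like cells it stood at 2.44 (1.04 to 4.34). At 2000 UMIs per cell Mmp10 was detected in 0 of 25 normal (upper limit 13.7%) and 14 of 108 wounded telocyte-like cells (13.0%, 7.27 to 20.8), so the shares overlapped within counting error. Mmp3, stromelysin 1, had 1 UMI in 1 normal and 46 UMIs in 7 wounded cells, a ratio of 3.15 (0.60 to 8.48). Timp1, an inhibitor of these enzymes, stood at 1.27 (0.53 to 2.10) over all collagen-positive cells, against -1.64 in the epithelial cells. Mmp2, gelatinase A, had the other sign in telocyte-like cells, at -0.69 (-0.91 to -0.46). Mmp14, a membrane-bound metalloproteinase, was found in 24 of 27 normal and 96 of 114 wounded telocyte-like cells, at a ratio of 0.11 (-0.27 to 0.51), and Mmp23 in 12 and 43 cells. Of 12 proteases and inhibitors compared in telocyte-like cells 5, Mmp10 among them, were 2-fold higher and 0 lower, beside 14.7% of all genes higher. In epithelial cells 2 of 13 were higher and 4 lower, beside 10.1% and 7.52% of all genes.

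Part of the interferon-stimulated genes were higher in the wounded telocyte-like cells. Of 12 compared genes 7 were at least 2-fold higher and 1 lower, with a median of 1.24, beside 14.7% and 9.42% of all genes. In the epithelial cells 0 of 13 were higher and 5 lower, with a median of -0.11, beside 10.1% and 7.52%. In the pooled fibroblast-like cells 4 of 13 were higher and 1 lower, with a median of 0.74, to be read beside the counts over all genes given above for the pooled cells. Ifi27l2a stood at 1.69 (1.25 to 2.17) in telocyte-like cells, with UMIs in 4 of 27 normal and 93 of 114 wounded cells, and at -1.54 in epithelial cells. Isg15, a ubiquitin-like protein induced by interferon, stood at 2.95 (1.05 to 6.02), from 2 UMIs in 2 normal and 80 UMIs in 31 wounded cells. B2m, the light chain of MHC class I, was the gene that was lower, at -1.55 (-1.78 to -1.32), and stood at -2.37 in epithelial cells.

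Chemokines did not move together. Cxcl10, which attracts T cells and is induced by interferon, had 1 UMI in 1 normal and 124 UMIs in 18 wounded telocyte-like cells. Cxcl9, a chemokine of the same class, had 0 and 65 UMIs, but 48 of the 65 lay in 1 of 4 cells. Cxcl9 was also among the leading genes of the wounded telocyte-like group, so its higher level there was partly set by the grouping. The stromal chemokine Cxcl12 had the other sign, at -1.07 (-1.24 to -0.91) in telocyte-like cells and -1.06 (-1.21 to -0.91) in the pooled fibroblast-like cells, against 0.11 in epithelial cells. Ccl8 stood at 2.28 (1.02 to 3.93) in telocyte-like cells and at -1.21 (-1.67 to -0.74) in the pooled cells. Of 11 cytokines and chemokines compared in telocyte-like cells, 4 were 2-fold higher, Cxcl9 among them, and 2 lower, beside 14.7% and 9.42% of all genes. In epithelial cells 3 of 17 were higher and 5 lower, beside 10.1% and 7.52% of all genes.

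Genes that were lower included regulators of gut mesenchyme. Foxf1 stood at 712 CPM (589 to 852) in normal and 207 CPM (178 to 239.6) in wounded telocyte-like cells, a log2 ratio of -1.78 (-2.13 to -1.43), with UMIs in 24 of 27 and 81 of 114 cells. In adventitial-fibroblast-like cells it stood at 236 and 69.5 CPM. It stood at 302 CPM (216 to 411) in the normal smooth-muscle-like cells, and at 83.4 CPM (55.4 to 121) in smooth-muscle-like and 35.2 CPM (15.2 to 69.4) in pericyte-like cells of the wounded library, and these groups are not like sets of cells. Tcf21 stood at -1.53 (-1.92 to -1.14) in telocyte-like cells. Nkx2-3, by contrast, stood at 0.02 (-0.36 to 0.43). Over all collagen-positive cells 3 of 6 gut mesenchyme factors were 2-fold lower and 0 higher, with a median of -1.01, beside 9.34% of all genes lower. In telocyte-like cells 2 of 6 were lower, beside 9.42%, with a median of -0.46. In epithelial cells, which held few UMIs of these genes, 3 of 6 were lower, beside 7.52%, with a median of -1.18. Clec3b stood at 1291 against 267 CPM in telocyte-like cells and was lower in the adventitial-fibroblast-like cells too, at 1045 against 5163 CPM.

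Of the secreted signals, Bmp4 stood at -1.18 (-1.39 to -0.97) in telocyte-like cells and at 353 against 1320 CPM in adventitial-fibroblast-like cells. Bmp2 stood at -0.99 (-1.40 to -0.57) in telocyte-like cells. It was among the leading genes of the normal telocyte-like group and not of the wounded one, so this ratio was partly set by the grouping. In the pooled fibroblast-like cells Bmp2 stood at -0.98 (-1.38 to -0.56). Bmp5 at -0.10 (-0.42 to 0.24) and Bmp7 at -0.31 (-0.63 to 0.03) had intervals that included 0, and Wnt5a stood at 0.41 (0.07 to 0.76). F3 stood at -1.63 (-1.91 to -1.34), and a similar ratio of -1.71 was found in epithelial cells. Igfbp3 stood at -1.86 (-2.35 to -1.37), against -3.85 in epithelial cells. Of the 9 telocyte genes compared in telocyte-like cells, 1 was at least 2-fold lower and 0 higher, near the 9.42% of all genes that were lower, and of 3 Wnt and R-spondin ligands 0 passed 2-fold in either direction.

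Immediate-early genes are known to be induced within minutes of tissue dissociation as well as by growth factors. Over all wounded collagen-positive cells 6 of 16 were at least 2-fold lower and 0 higher, with a median of -0.54, beside 9.34% of all genes lower. In telocyte-like cells 4 of 12 were lower, beside 9.42%, with a median of -0.68. In epithelial cells the list went the other way, with 7 of 16 higher, beside 10.1% of all genes, 0 lower and a median of 0.51. Egr1 stood at -0.05 (-0.36 to 0.28) over all collagen-positive cells and 0.50 (-0.13 to 1.20) in telocyte-like cells. Fos stood at 1890 CPM (1765 to 2022) in normal and 590 CPM (559 to 622) in wounded collagen-positive cells, and at 859 and 1051 CPM in epithelial cells. These sums over collagen-positive cells mix groups whose shares differ between the libraries. In telocyte-like cells Fos had 115 UMIs in 16 of 27 normal and 184 UMIs in 32 of 114 wounded cells. The telocyte-like cells held 165782 and 860255 UMIs in all. Junb stood at -1.75 (-2.07 to -1.43) in telocyte-like cells and -0.08 in epithelial cells, and Ier2 at -1.33 (-1.59 to -1.06) over all collagen-positive cells and 0.47 in epithelial cells. Hypoxia and glycolysis genes were at least 2-fold lower at 4 of 10 genes in telocyte-like and 6 of 12 in epithelial cells, beside 9.42% and 7.52% of all genes, with medians of -0.94 and -1.04.

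Cell cycle genes were found in a few wounded telocyte-like cells. Mki67, a marker of proliferating cells, had 0 UMIs in 27 normal and 54 UMIs in 6 wounded telocyte-like cells, Top2a 0 and 57 UMIs in 12 cells, and Cenpf 0 and 87 UMIs in 6 cells. Cenpf was among the leading genes of the wounded telocyte-like group, so its higher level there was partly set by the grouping. Stmn1 had 4 UMIs in 4 normal and 174 UMIs in 16 wounded cells. At 2000 UMIs per cell, Mki67 was detected in 0 of 25 normal telocyte-like cells (upper limit 13.7%) and in 4 of 108 wounded ones (3.70%, 1.02 to 9.21), so a difference in the share was not detectable at this depth. The cell with the most Mki67 held 24 of the 54 UMIs, and the cell with the most Cenpf 31 of the 87. In the 27 normal telocyte-like cells, with 165782 UMIs in all against 860255 in the wounded ones, 11 of 16 cell cycle genes were at 0, so no count of higher genes is given for this list in these cells. Over all collagen-positive cells 2 of 16 were higher and 6 lower, beside 14.0% and 9.34% of all genes. In the normal sum 169 of the 175 Stmn1 UMIs and 9 of the 9 Mki67 UMIs lay in the 8 stratified-epithelium-like cells, so these values are not a level of the fibroblast-like cells.

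**Figure D4:**
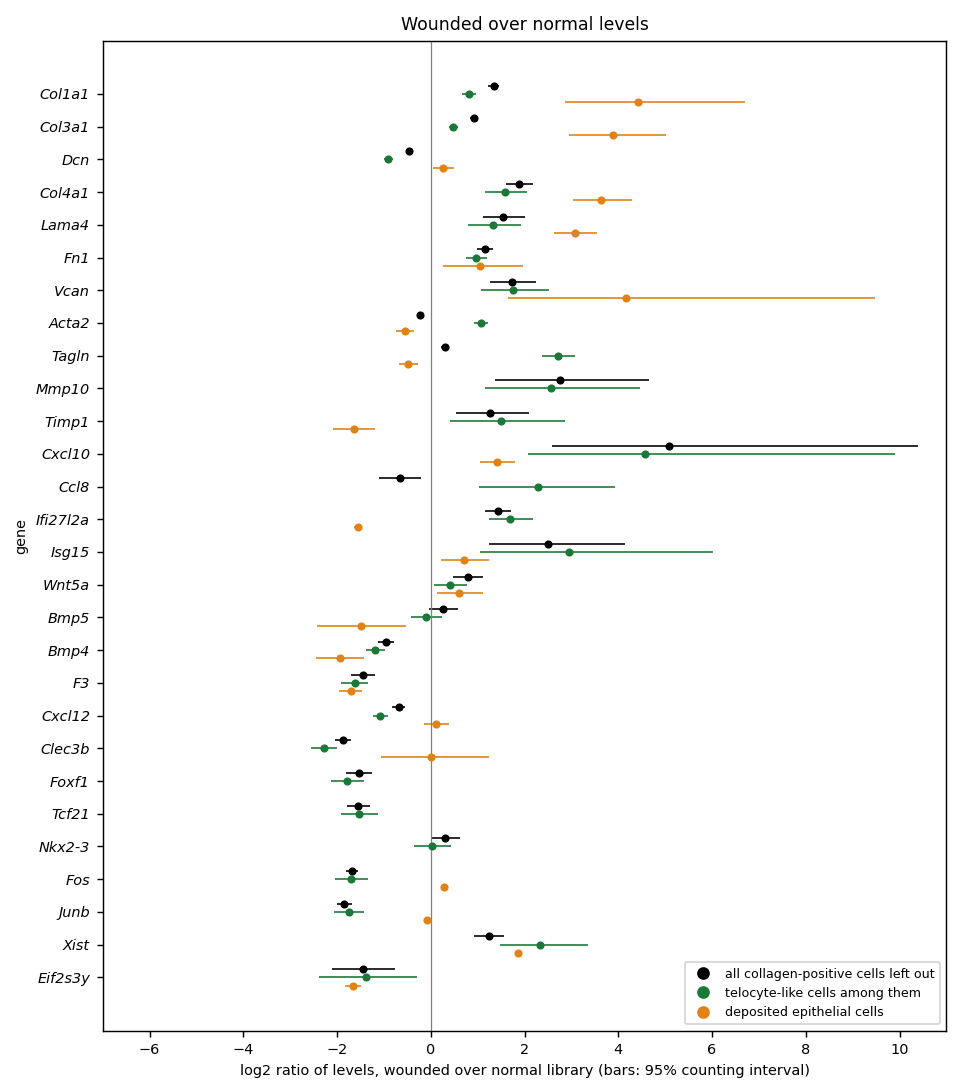
Points give the log2 ratio of levels in the wounded over the normal library for 28 genes, in all collagen-positive cells (black), telocyte-like cells (green) and deposited epithelial cells (orange), with exact 95% counting intervals as bars, and orange points are left out where the epithelial cells held 0 UMIs in 1 library or under 20 in all. Acta2 and Tagln stand right of 0 in telocyte-like cells (1.06 and 2.71) and at -0.24 and 0.30 over all collagen-positive cells. Foxf1, Clec3b, Fos and Junb stand left of 0 in telocyte-like cells.

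**Figure D5:**
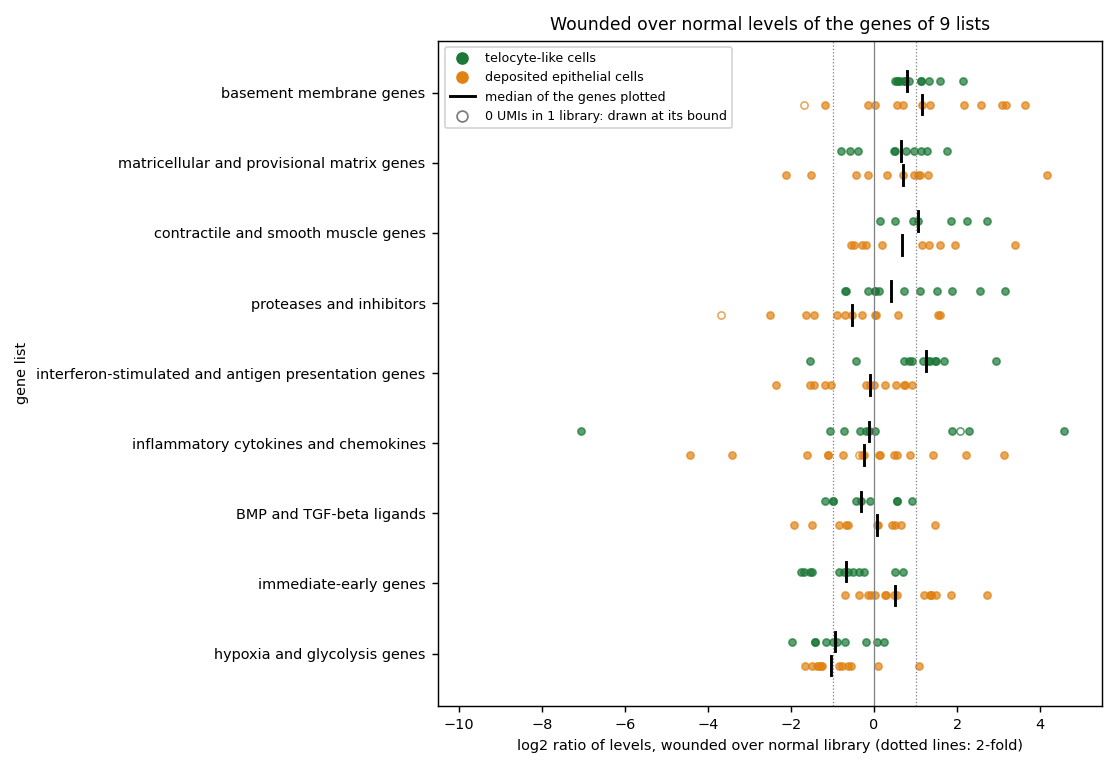
Points give the log2 ratio of each compared gene in the wounded over the normal library, by gene list, in telocyte-like (green) and deposited epithelial cells (orange), with black bars at the medians, dotted lines at 2-fold and open points where 1 library held 0 UMIs. Interferon genes have medians of 1.24 in telocyte-like and -0.11 in epithelial cells, immediate-early genes -0.68 and 0.51, and hypoxia and glycolysis genes -0.94 and -1.04.

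Sex-linked genes also differed between the libraries. Xist, the RNA of the inactive X chromosome, had UMIs in 11 of 65 normal and 161 of 288 wounded collagen-positive cells, a log2 ratio of 1.23 (0.92 to 1.56), and stood at 1.86 in epithelial cells. The Y-linked gene Eif2s3y had UMIs in 22 of 65 and 43 of 288 cells, a ratio of -1.45 (-2.11 to -0.76), and stood at -1.65 in epithelial cells. The part of the sexes of the pooled mice in the ratios above was not tested.

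Transcripts of the rule were looked for outside the collagen-positive cells as well. In the normal library 7 of 939 epithelial cells held at least 5 marker UMIs, all of them named Anal Canal and all 56 of their marker UMIs from Dcn. In the wounded library 103 of 4147 did, among them 62 of 397 cells named Rectum (15.6%, 12.2 to 19.6), 23 of 573 named Basal (4.01%) and 0 of 838 named Wound_Stress. The marker-positive Rectum cells were shallow, with a median of 3255 UMIs against 9991 for all cells of that name, and held 398 Col3a1 UMIs and 253 Dcn UMIs. The reporter ZsGreen1, counted in the normal library, had 0 UMIs in 65 collagen-positive cells (upper limit 5.52% of cells) and was detected in 41 of 939 epithelial cells (4.37%, 3.15 to 5.88). At this depth the 2 shares could not be told apart. Krt17, the gene whose promoter drives the Cre, stood at 272 and 129 CPM in collagen-positive cells, with UMIs in 12 of 65 and 58 of 288, against 3044 and 2317 CPM in epithelial cells.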

How the data were processed

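For each library the authors deposited a matrix of UMI counts, made with Cell Ranger on mm10 and not normalized. The matrix headers name version 3.1.0 for the normal and 4.0.0 for the wounded library, the submitters' notes 3.1.0 and Seurat 3.2.2, and the gene annotation is not given in the sources used here. The authors also deposited 1 table per library with values on a natural log scale, of which only the barcodes and cluster names were used. The normal library held 17617944 UMIs over 31054 features and the wounded one 88260050 over 32285. The members and gene lists were chosen with earlier results of these data known. The libraries shared 1 barcode, and none among the members.

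UMIs of members (448094 and 2281092 in all) were summed over cells and divided by the total. Genes entered the ratio over epithelium with at least 20 UMIs in the members and the wounded over normal ratio with at least 20 over both sums, and the latter used the 30406 gene IDs in both feature lists. Counts of 0 were set to 3 UMIs over the group, as a bound. Intervals are exact at 95%: Poisson for levels, binomial for ratios, Clopper-Pearson for shares. Called genes are those past 2-fold. Shares used cells thinned to 2000 UMIs, which left out 7 and 16 members. Since 3′ counting gives 1 UMI per molecule, levels do not depend on transcript length.

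Members were clustered per library in scanpy 1.11.5 with igraph 0.11.9 (1000 variable genes, 10 principal components, 15 neighbours, Leiden resolution 0.5) in Python 3.11.15, with numpy 2.4.6, scipy 1.17.1, pandas 2.3.3 and matplotlib 3.10.9. A cluster was named when its list held at least 1 of its 10 leading genes, had at least 3 detected genes and no other list held as many. No doublet caller was run. The sort discriminated doublets, which does not remove 2 cells caught in 1 droplet, and cells with both collagen and keratin UMIs were kept and left out in an alternative. Genes named were the rule and gate genes, the 15 largest ratios over epithelium with at least 100 UMIs, the 12 largest wounded over normal ratios in each direction with at least 50 UMIs, and genes of 43 lists. Some genes that this rule names are not reported here. Coordinates are from GENCODE M21 on GRCm38. On simulated data, the ratio recovered the direction of 91 of 94 genes changed 2-fold and 106 of 106 changed 4-fold among 9786 genes for wounded over normal, and 96.8% of intervals held the true value. Alternatives changed the filters, the thinning, the scaling, the clustering and the choice of members.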

Additional observations from a re-analysis of the deposited data

Results flagged for a closer look

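Cnfn, a gene of cornified epithelium, was flagged because its ratio had opposite signs in the 2 sets of cells. Its log2 ratio of wounded over normal was 4.32 (1.81 to 9.64) in collagen-positive cells and -1.85 in deposited epithelial cells. The difference between the sets was not tested. All 102 UMIs of the wounded collagen-positive cells were in 1 cell, which also held 525 Psca UMIs, and 1 UMI was found in 65 normal cells.

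In the wounded library 47 barcodes that failed the filters held at least 5 UMIs of the fibroblast markers, data that no comparison above used. Of these, 38 had at least 25% mitochondrial UMIs and 9 fell outside the limits on detected genes, and their median was 32 marker UMIs. In the normal library 0 of 1016 failed barcodes held as many.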

How the results depend on the processing

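No paired analysis was possible because each condition was 1 library, and leaving out a replicate could not be run for the same reason. With other filters the number of collagen-positive cells was 57 to 74 in the normal and 208 to 303 in the wounded library. Counts past 2-fold moved with the minimum number of UMIs. At 50 UMIs in place of 20, 490 genes in place of 1198 were higher than in epithelium in the normal library, and for wounded over normal 816 in place of 1373 were higher and 486 in place of 914 lower. With no minimum, 4447 and 5334 genes (main value 2691 in the wounded library) were higher than in epithelium and 4739 were lower in wounded cells. In telocyte-like cells alone, an alternative chosen after seeing the data, 606 genes were lower. Thinning to 1000 UMIs gave Pdgfra in 20.6% of normal and 21.1% of wounded collagen-positive cells in place of 39.7%, Acta2 in 64.4% of wounded cells in place of 73.9% and Vim in 76.8% in place of 89.0%, and without thinning Pdgfra was in 56.9% and Vim in 94.8% of wounded cells. At resolution 1.0 the wounded cells gave 10 groups in place of 6. Clustered without the 5 markers, or without the immediate-early and heat shock genes, the normal telocyte-like and adventitial-fibroblast-like cells formed 1 group of 36 named adventitial-fibroblast-like, for which reason both were also pooled.

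Without the top cell of each gene, Psca (-1.36), Cnfn (-2.36) and Cstdc5 (1.67) changed sign. With the ratio of epithelial cells subtracted, Rnasek (-0.17), Ube2v1 (-0.38), Fam89b (-0.65) and Col1a1 (-3.08) did. Atp6v0c gave -4.93, but as a lower bound, since it had 0 UMIs in the normal cells, so a change of sign is not shown. Of the remaining values of single genes under an alternative, 276 stayed within counting error and 73 moved for wounded over normal, and over epithelium 146 and 7 did in the normal and 163 and 17 in the wounded library. Depth limits statements on genes with few UMIs, and 65 normal cells limit shares to wide intervals.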
